A study of Arabidopsis thaliana with 24 samples.

Results

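Early H3K9ac losses are the peaks of acetylated lysine 9 of histone H3 whose signal in wild-type seedlings was at least 1.5-fold lower after 1 h of red light than in darkness. They were chosen by measured values of 2 groups, wt R1h and wt D, after 0.07 was added to each signal to damp the ratios of peaks with little signal. The rule kept 165 of 17319 peaks, 0.953% of them, which the table assigns to 167 of 17672 genes in 171 of its 19435 entries. The values in wt WLc then split them. In 102 peaks the signal in wt WLc was also at least 1.5-fold lower than in wt D (lasting losses), in 42 it was less than 1.2-fold lower or was higher (recovered losses), and 21 lay in between. The changes of these 3 wild-type groups are therefore descriptions of the choice, and the pifq values carry the comparison.

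The groups are 2-day-old whole Arabidopsis seedlings of 2 genotypes under 3 light treatments. The pifq line lacks functional PIF1, PIF3, PIF4 and PIF5 through mutations carried in every cell, and wild type (wt) is Col-0. For each genotype, seedlings received 1 h of red light after 47 h of darkness (R1h), grew in continuous white light (WLc), or stayed in true darkness (D), a regime in which a far-red pulse at the start removes active phytochrome. There were 3 H3K9ac libraries to each of the 6 groups by the labels, but the deposited table holds 1 pooled signal per peak and group, expressed per bp of peak. No replicate spread, SD or p-value can be drawn from it, the sequencing depth behind it is unknown, and every difference below is a difference between pooled values. In whole seedlings, fewer cells that carry the mark and less of it per cell cannot be told apart.

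H3K9ac is laid down by histone acetyltransferases and removed by histone deacetylases, and it lies over the 5′ part of transcribed genes. In darkness, PIF transcription factors bind G-box and related promoter elements and keep the seedling in its etiolated form, with a long hypocotyl and a closed apical hook. Red light converts phytochromes to their active form, which enter the nucleus and trigger the rapid breakdown of PIFs. Ethylene, auxin and shade-response genes are among the known PIF-induced genes.

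Promoters of 6 member genes are shown because they carry the letters that PIFs are known to bind, and were picked for that. At PHOT1 the window also lies inside the peak itself. Each line gives the 250 bases before the annotated gene start in RefSeq TAIR10.1, 5′ to 3′ on the strand of the gene, in lower case with G-box (CACGTG) and PIF-binding E-box (PBE, CACATG or CATGTG) letters in capitals. FHL lies on the plus strand (chr5:437115-437364), AT5G05965 on the minus strand (chr5:1792635-1792884), HSD5 on the plus strand (chr4:6268023-6268272), ACS8 on the plus strand (chr4:17751829-17752078), PHOT1 on the plus strand (chr3:16816471-16816720) and AT5G50335 on the minus strand (chr5:20489728-20489977).
FHL, lasting: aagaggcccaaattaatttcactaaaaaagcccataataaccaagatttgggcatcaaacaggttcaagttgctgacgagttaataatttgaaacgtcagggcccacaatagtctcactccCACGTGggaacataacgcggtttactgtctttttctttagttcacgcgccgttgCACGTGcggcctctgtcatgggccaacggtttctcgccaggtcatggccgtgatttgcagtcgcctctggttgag
AT5G05965, lasting: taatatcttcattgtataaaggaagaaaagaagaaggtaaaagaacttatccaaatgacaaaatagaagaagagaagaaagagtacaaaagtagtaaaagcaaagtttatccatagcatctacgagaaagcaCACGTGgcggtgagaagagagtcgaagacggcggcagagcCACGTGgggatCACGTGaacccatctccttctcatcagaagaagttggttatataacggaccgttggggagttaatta
HSD5, lasting: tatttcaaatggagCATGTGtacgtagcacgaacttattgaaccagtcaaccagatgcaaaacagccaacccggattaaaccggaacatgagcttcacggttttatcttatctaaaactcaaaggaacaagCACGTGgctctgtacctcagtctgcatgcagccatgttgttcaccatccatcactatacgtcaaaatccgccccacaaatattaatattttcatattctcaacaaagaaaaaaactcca
ACS8, lasting: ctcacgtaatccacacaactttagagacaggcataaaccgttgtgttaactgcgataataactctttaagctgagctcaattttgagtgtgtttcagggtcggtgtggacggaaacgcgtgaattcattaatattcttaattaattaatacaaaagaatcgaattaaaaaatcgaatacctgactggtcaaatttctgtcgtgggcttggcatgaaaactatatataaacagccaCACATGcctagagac
PHOT1, in between: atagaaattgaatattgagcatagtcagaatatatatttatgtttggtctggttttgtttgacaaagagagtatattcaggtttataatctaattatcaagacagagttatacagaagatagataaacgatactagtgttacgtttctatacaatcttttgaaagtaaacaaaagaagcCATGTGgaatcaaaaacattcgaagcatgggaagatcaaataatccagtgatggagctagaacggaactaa
AT5G50335, recovered: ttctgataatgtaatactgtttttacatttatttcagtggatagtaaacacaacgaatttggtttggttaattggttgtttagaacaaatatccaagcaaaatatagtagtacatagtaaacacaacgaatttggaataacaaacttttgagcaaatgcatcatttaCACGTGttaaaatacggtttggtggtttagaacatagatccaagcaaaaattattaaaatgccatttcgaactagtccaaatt

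FHL held 2 G-boxes, whose first bases stand at positions -129 and -75 from the gene start, and AT5G05965 held 3, at -118, -78 and -67. Over the window from 250 bases before to 50 after the start, searched on both strands, a G-box was present in 9 of 103 genes with a lasting loss (8.7%) and in 5 of 41 with a recovered one (12.2%), against 1557 of 17580 genes with a peak (8.9%). A PBE was present in 17 lasting genes (16.5%) and 1 recovered gene (2.4%), against 12.7% of all genes. In the 1000 bases before the start, a window added after the data were seen, a PBE was found in 60 lasting genes (58.3%), 12 of 23 in between (52.2%) and 14 recovered genes (34.1%), against 38.1% of all. The evening element AAAATATCT, a clock-related motif that overlaps neither of the others, was present there in 13 lasting (12.6%) and 7 recovered genes (17.1%), against 7.2% of all. These matches are letters in a window and no test was made of them.

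By their medians, lasting losses stood higher in wt D than in the other 5 groups, whereas recovered losses stood lower in wt R1h than in the other 5. Both orders rest on wt values that chose and split the peaks. A high wt D or a low wt R1h value also moves the comparison with pifq, so the orders are descriptions only. The median signal of lasting losses was 0.223 in pifq R1h, 0.223 in pifq WLc, 0.288 in pifq D, 0.349 in wt R1h, 0.228 in wt WLc and 0.674 in wt D. For recovered losses the medians were 0.437 in pifq R1h, 0.425 in pifq WLc, 0.539 in pifq D, 0.222 in wt R1h, 0.545 in wt WLc and 0.430 in wt D. Peaks in between had 0.370, 0.392 and 0.446 in pifq R1h, pifq WLc and pifq D, and 0.339, 0.442 and 0.626 in wt R1h, wt WLc and wt D. Over all peaks the lowest group median was 0.706 (pifq D) and the highest 0.719 (wt WLc), so the early losses were peaks of below-average strength, and 147 of the 165 belong to the 4330 weakest peaks by mean signal over the groups. In wt D, however, 53 of them reached the median of all peaks.

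**Figure D1:**
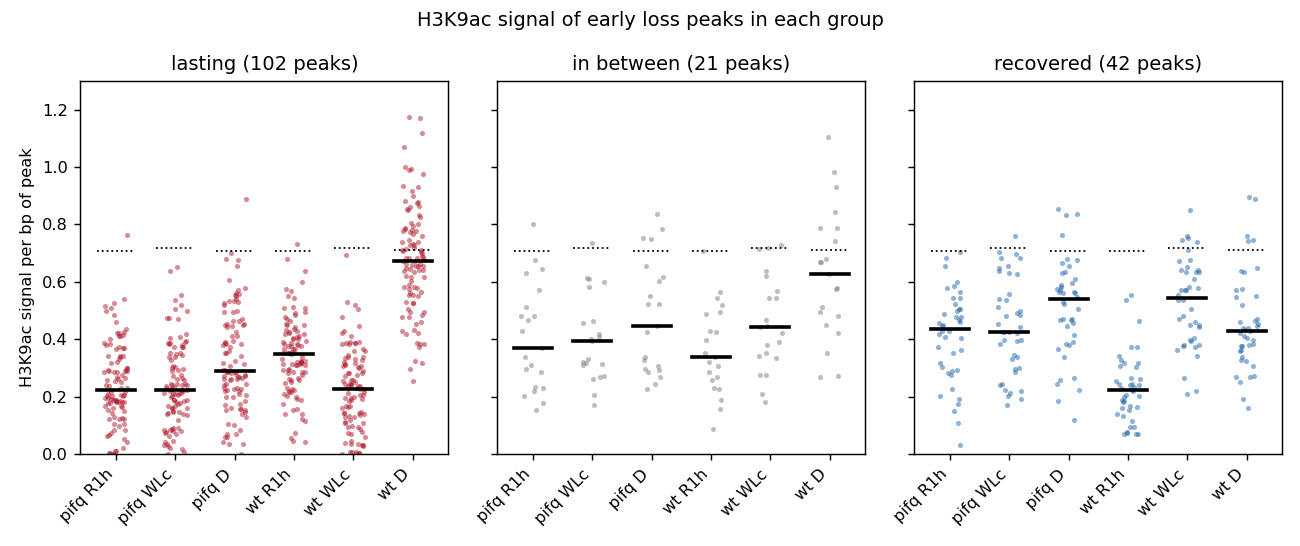
H3K9ac signal per bp of peak (vertical axis) for each early loss peak (points) in the 6 groups, in separate panels for lasting, in between and recovered losses. Thick bars mark the median of the points and dotted bars the median of all 17319 peaks in that group. The median of the lasting losses is highest in wt D (0.674), and that of the recovered losses is lowest in wt R1h (0.222). Both groups were used to choose the peaks.

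At the lasting losses the signal in wt WLc was often below that of wt R1h, in 85 of 102 peaks, and the median log2 change was -1.21 for wt WLc and -0.76 for wt R1h, both against wt D. Of the recovered losses, 28 of 42 had more signal in wt WLc than in wt D, with a median log2 change of 0.15, and 5 were at least 1.5-fold higher (11.9%), against 8.84% of all peaks and 23.6% of the 4330 weakest. The limit is a line through a continuous range of values. Just inside it lay AT1G58400, with a signal of 0.483 in wt R1h and 0.760 in wt D, followed by the shared peak of AT3G03700 and AT3G03702, AT1G44830 and AT1G47280. Just outside lay a second peak of CBL1, with 0.628 in wt R1h and 0.975 in wt D, followed by SGR5, MDP40 and AT4G35720.

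The pifq columns share no value with the choice when pifq R1h is set against pifq D. The signal at these peaks was lower in pifq R1h as well, but by less than the 1.5-fold limit in most of them. The median log2 change of the 165 peaks in pifq R1h was -0.29, against -0.002 for all peaks, and 147 of 165 (89.1%) were below 0, against 50.9% of all peaks. At least 1.5-fold lower were 24 of 165 (14.5%), against 0.704% of all peaks and 2.77% of the 4330 weakest, from which most of these peaks come. None was at least 1.5-fold higher, against 1.93% of all peaks and 5.96% of the 4330 weakest. The count of 24 depends on weak peaks: it was 0 of 84 with a pseudocount of 0.2 and 0 of 18 without the 4330 weakest peaks. In these settings only 0.15% and 0.015% of all peaks passed the limit. By class, 19 of 102 lasting, none of 21 in between and 5 of 42 recovered losses passed the limit in pifq, with median log2 changes of -0.36, -0.23 and -0.28. The log2 change was smaller in pifq than in wt for 155 of 165 peaks, which were chosen for a large change in wt. Chosen the other way round, the 122 peaks at least 1.5-fold lower in pifq R1h than in pifq D had a median log2 change of -0.69 in pifq and -0.29 in wt, and 108 of them changed less in wt. The lists of 165 and 122 peaks share 24, which are 14.5% of the wt list and 19.7% of the pifq list.

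**Figure D2:**
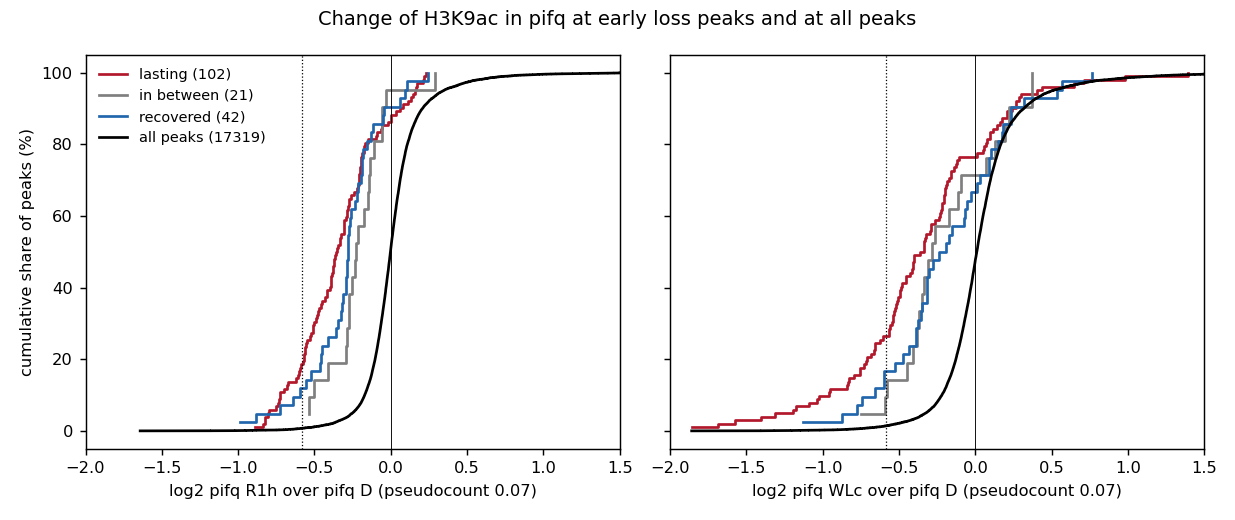
Cumulative share of peaks (%) by log2 change of H3K9ac in pifq R1h (left) and pifq WLc (right) over pifq D, for lasting, in between and recovered losses and for all peaks (black). The dotted line marks 1.5-fold lower. In pifq R1h, 89.1% of the early losses and 50.9% of all peaks lie below 0.

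The peaks with the lowest log2 changes in pifq R1h were AT2G02060, which encodes a homeodomain-like protein (-0.99), AT4G13790, a SAUR-like gene (-0.89), AT4G02170 (-0.89), AT5G15140 (-0.84), AT1G53690 (-0.82) and AT5G38590 (-0.82). At AT4G13790 the signal was 0.0520 in pifq R1h, 0.0208 in pifq WLc and 0.156 in pifq D, and it was 0.261 in wt R1h, 0.0367 in wt WLc and 0.504 in wt D. This SAUR-like gene thus kept the same order of groups in both genotypes at a lower level in pifq. HSD5, the hydroxysteroid dehydrogenase gene whose promoter is given above, had 0.104 in pifq R1h and 0.218 in pifq D, and 0.156 in wt R1h and 0.690 in wt D. The highest log2 changes in pifq R1h were those of AT5G22140 (0.29), AT5G54580 (0.24), MEF18 (0.23), FLP1 (0.22), AT5G06570 (0.21) and JAZ3 (0.17), a repressor of jasmonate responses. None of these 6 reached 1.5-fold.

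**Figure D3:**
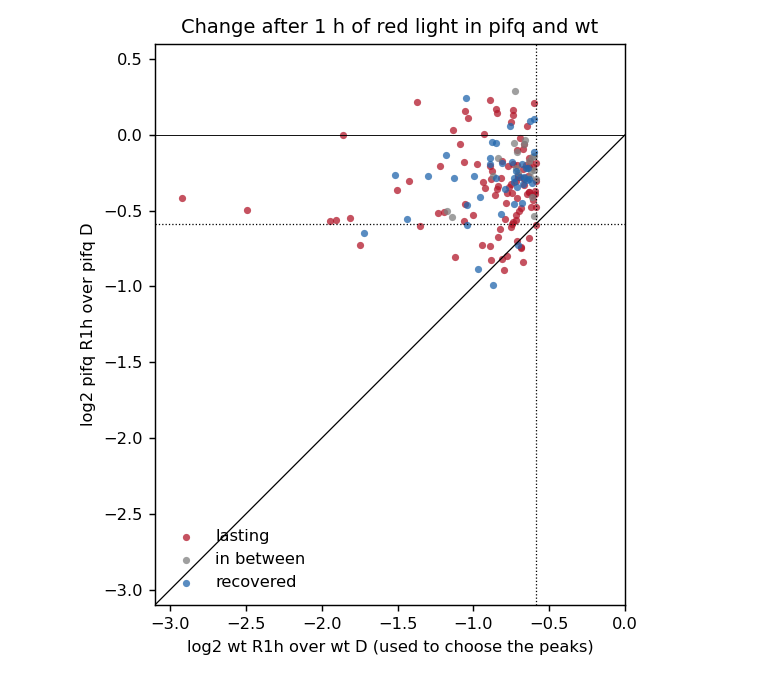
Each point is an early loss peak, with its log2 change in wt R1h over wt D on the horizontal axis, which chose the peaks, and in pifq R1h over pifq D on the vertical axis. The diagonal marks equal change and dotted lines mark 1.5-fold lower. Of the 165 points, 155 lie above the diagonal and 24 at or below the horizontal dotted line.

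In darkness, pifq had less of the mark than wt at most lasting losses, but not at recovered ones. This comparison shares wt D with the choice, so a high wt D value moves both, and it is given as values only. The signal in pifq D was at least 1.5-fold lower than in wt D for 74 of 102 lasting (72.5%), 4 of 21 in between (19.0%) and 2 of 42 recovered losses (4.76%), against 5.3% of all peaks and 16.9% of the 4330 weakest. At least 1.5-fold higher were 3 recovered losses (7.14%) and no others, against 5.88% of all peaks and 16.4% of the 4330 weakest. Of the recovered losses, 36 of 42 (85.7%) were less than 1.2-fold lower in pifq D or were higher, and 26 had more signal in pifq D than in wt D, against 3 of 102 lasting ones. Peaks grouped by their level in pifq D against wt D had similar log2 changes in pifq R1h over pifq D. The median log2 change there was -0.28 for the 52 peaks less than 1.2-fold lower in pifq D than in wt D, -0.35 for the 33 peaks from 1.2- to 1.5-fold lower and -0.32 for the 80 peaks at least 1.5-fold lower, of which 6, 5 and 13 passed the limit. In wt R1h these 3 sets had medians of -0.71, -0.76 and -0.75. The pifq change shares pifq D with the grouping and the wt change shares wt D, so an error in either moves both.

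In continuous white light the pifq signal at these peaks was mostly a little lower than in dark-grown pifq. The median log2 change in pifq WLc over pifq D was -0.32 for the 165 peaks, against 0.01 for all peaks. At least 1.5-fold lower were 36 (21.8%), or 27 lasting, 2 in between and 7 recovered losses, against 1.4% of all peaks and 5.08% of the 4330 weakest. At least 1.5-fold higher were 5 (3.03%), against 4.08% of all peaks and 13.0% of the 4330 weakest. In wt, 102 of the 165 were lower in WLc by definition of the lasting class, against 7.47% of all peaks, from which nothing is read. GRF7, a growth-regulating transcription factor gene, had the lowest value, with 0.0729 in pifq WLc, 0.255 in pifq R1h and 0.448 in pifq D, and 0.0691 in wt WLc, 0.351 in wt R1h and 0.683 in wt D. The highest was JLO, a LOB-domain gene of organ boundaries, with 0.382 in pifq WLc and 0.102 in pifq D, whereas it had 0.0950 in wt WLc and 0.254 in wt D. GRF7 was therefore lower in white light than in darkness in both genotypes, whereas JLO was higher in pifq and lower in wt.

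Ethylene genes held 3 of the early losses. ACS8, which encodes a synthase of the ethylene precursor ACC, had 0.153 in pifq R1h, 0.295 in pifq WLc and 0.261 in pifq D. In wt it had 0.140 in wt R1h, 0.0600 in wt WLc and 0.737 in wt D, a log2 change of -1.95 after red light. Its peak is 175 bp long, lies 1215 to 1390 bp downstream of the gene start, and is wholly exonic. The ethylene receptor gene ETR2 had 0.423 in pifq R1h, 0.353 in pifq WLc and 0.541 in pifq D, and 0.228 in wt R1h, 0.361 in wt WLc and 0.729 in wt D. A peak shared by ERS1, another receptor gene, and the neighbouring bZIP gene BZIP17 was in between, with 0.514 in pifq R1h and 0.618 in pifq D, whereas wt had 0.488 in R1h and 0.788 in D. Early losses were found in 1 of 10 ethylene synthesis genes with a peak (10.0%) and in 2 of 19 genes of ethylene receptors, signalling and responses (10.5%), against 0.945% of all genes with a peak.

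The list of shade and PIF-induced transcription factors, drawn up in part for PIF induction, had the most members, 7 of 22 genes with a peak (31.8%), against 0.945% of all genes with a peak. PIL1, a bHLH factor named for its likeness to PIF3, had 0.0836 in pifq R1h, 0.0635 in pifq WLc and 0.128 in pifq D, and 0.282 in wt R1h, 0.168 in wt WLc and 0.929 in wt D. The homeodomain gene HB2 had 0.425, 0.475 and 0.532 in pifq R1h, pifq WLc and pifq D, and 0.443, 0.531 and 0.834 in wt R1h, wt WLc and wt D. HB52, a related homeodomain gene, was lower throughout, with 0.181 in pifq R1h and 0.291 in pifq D, whereas wt had 0.365 in R1h and 0.800 in D. In these 3 lasting losses, wt D, a group used in the choice, stood above the other 5 groups. BBX23, a B-box zinc finger gene, had 0.0726 in wt R1h and 0.431 in wt D and lay at the floor, the lowest product of signal and length found in a column, in pifq R1h, pifq WLc and wt WLc. PAR1, an atypical bHLH protein that inhibits elongation, was in between, with 0.803 in pifq R1h, 0.734 in pifq WLc and 0.838 in pifq D, and 0.565 in wt R1h, 0.730 in wt WLc and 0.984 in wt D. BEE3, a brassinosteroid-related bHLH gene, was the only recovered member of the list. Its signal was 0.545 in pifq R1h, 0.537 in pifq WLc and 0.667 in pifq D, and 0.220 in wt R1h, 0.752 in wt WLc and 0.760 in wt D. At BEE3, wt R1h, also used in the choice, stood below the other 5 groups, which lay between 0.537 and 0.760. PRE5, a small HLH gene of cell elongation, completed the list as a lasting loss.

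**Figure D4:**
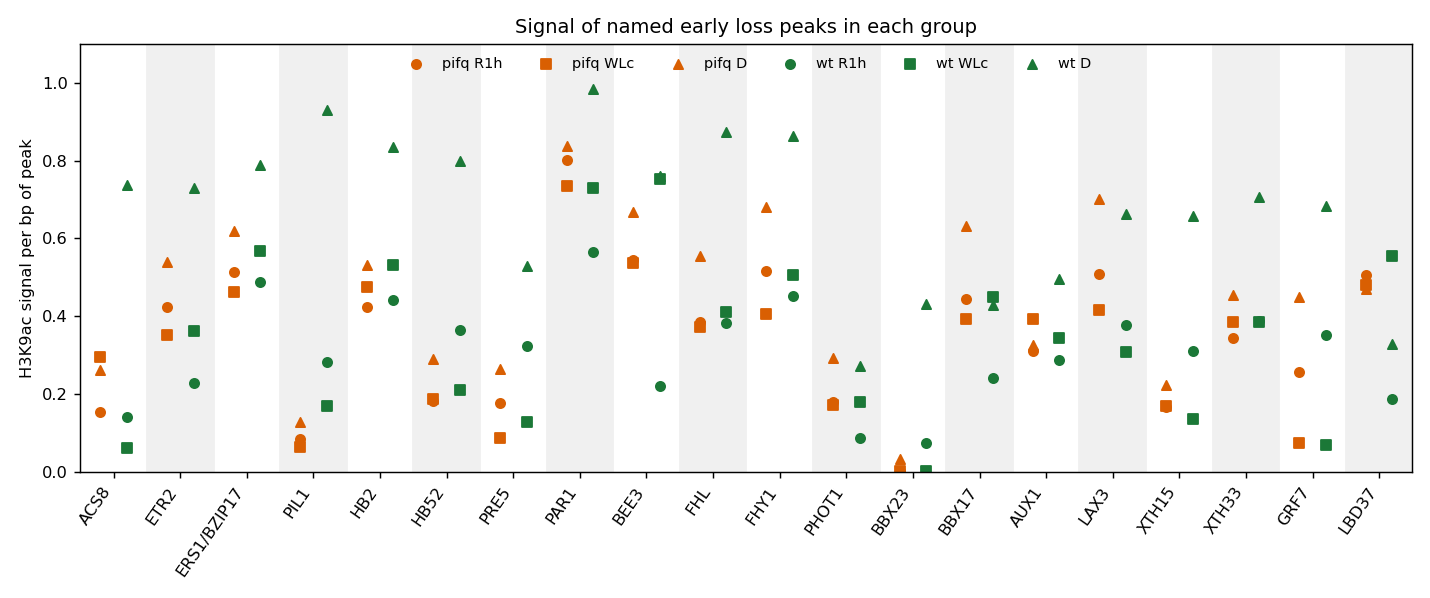
H3K9ac signal per bp of peak (vertical axis) of 20 named early loss peaks, with pifq (orange, left) and wt (green, right) and a symbol for each light treatment. At PIL1, a lasting loss, the wt D triangle stands above all other symbols (0.929). At BEE3, a recovered loss, the wt R1h circle stands below all others (0.220). At LAX3, also a lasting loss, pifq D (0.702) stands above wt D (0.664).

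Light signalling gave 3 of 40 genes with a peak (7.5%), against 0.945% of all genes, in phytochrome A import and phototropism. Most of that list did not follow them: by the strongest peak of each gene its median log2 change in wt R1h was 0.08, and 9 of the 40 were at least 1.5-fold higher, against 4.54% of all peaks. FHY1 and FHL carry phytochrome A into the nucleus. FHL had 0.384 in pifq R1h, 0.372 in pifq WLc and 0.554 in pifq D, and 0.383 in wt R1h, 0.411 in wt WLc and 0.873 in wt D. FHY1 had 0.516, 0.407 and 0.681 in pifq R1h, pifq WLc and pifq D, and 0.451, 0.507 and 0.863 in wt R1h, wt WLc and wt D. Both import genes had less signal in R1h than in D in each genotype, with a log2 change of -0.46 (pifq) and -1.06 (wt) at FHL and of -0.36 (pifq) and -0.84 (wt) at FHY1. PHOT1, the blue-light receptor of phototropism, had the same level in both dark groups, with 0.179 in pifq R1h, 0.172 in pifq WLc and 0.292 in pifq D, against 0.0857 in wt R1h, 0.180 in wt WLc and 0.273 in wt D. Its peak spans the gene start, from 472 bp upstream to 779 bp downstream. A second PHOT1 peak, no early loss, had 0.5605 in wt R1h and 0.7088 in wt D. Outside this list, AT4G33490, AT3G15440 and ORP2A had, with PHOT1 and PAR1, the largest ratios of the peaks in between. CIB1, a bHLH partner of cryptochrome, shared a peak with AT4G34540 that was in between, with 0.647 in pifq R1h and 0.783 in pifq D, whereas wt had 0.544 in R1h and 0.932 in D.

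Auxin transport and cell wall genes gave 2 members each, of 22 genes with a peak in auxin synthesis and transport (9.1%) and of 26 in cell wall expansion (7.7%), against 0.945% of all genes. By the strongest peak of each gene, however, none of the 22 auxin genes was at least 1.5-fold lower in wt R1h. AUX1 and LAX3 encode auxin influx carriers. LAX3 had 0.507 in pifq R1h, 0.417 in pifq WLc and 0.702 in pifq D, and 0.379 in wt R1h, 0.307 in wt WLc and 0.664 in wt D, and was 1 of the 3 lasting losses with more signal in pifq D than in wt D. At AUX1 the peak lies 3373 to 4074 bp downstream of the start, and its signal was 0.311 in pifq R1h and 0.327 in pifq D, whereas wt had 0.287 in R1h and 0.496 in D. The other peak of AUX1 had 0.625 in wt R1h and 0.807 in wt D, and that of LAX3 had 0.466 and 0.497. XTH15, a xyloglucan endotransglucosylase gene of wall loosening, had 0.166 in pifq R1h, 0.169 in pifq WLc and 0.222 in pifq D, and 0.310 in wt R1h, 0.134 in wt WLc and 0.657 in wt D. XTH33 had 0.343 in pifq R1h and 0.455 in pifq D, whereas wt had 0.388 in R1h and 0.706 in D.

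Other lists held no early loss. These were the lists of auxin response (37 genes with a peak), brassinosteroid (17), gibberellin (20), cytokinin (17), circadian clock (26), heat, touch and wounding (20), histone acetylation (22) and reference genes (14), and the markers of root (4 of 12 with a peak), stomatal lineage (3 of 8) and mesophyll (6 of 6). As 0.945% of all genes with a peak carried an early loss, lists of this size can hold none at that share. ARF18 and the SAUR-like genes AT4G13790 and AT3G53250 carried early losses but were not on the auxin response list. Of 12 seed markers, 2 had a peak and 1, the oil-body gene OLEO3, was a lasting loss, with 0.207 in pifq R1h, 0.147 in pifq WLc and 0.227 in pifq D, and 0.568 in wt R1h, 0.00718 in wt WLc and 0.975 in wt D. The signal summed over the 2 seed markers was 0.893 in wt R1h, 0.670 in wt WLc and 1.07 in wt D, over the 4 root markers 3.40, 2.49 and 3.39, over the 3 stomatal markers 1.73, 2.38 and 1.07, and over the 6 mesophyll markers 2.41, 4.19 and 2.03. In pifq R1h, pifq WLc and pifq D the sums were 0.792, 0.737 and 0.594 for seed, 2.95, 2.92 and 2.66 for root, 2.03, 2.49 and 1.91 for stomatal and 3.73, 4.07 and 3.54 for mesophyll markers. The part of cell composition in the early losses was not tested.

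By their product names, 20 of 103 genes with a lasting loss (19.4%), 3 of 23 in between (13.0%) and 5 of 41 recovered genes (12.2%) carry a transcription factor or zinc finger word, against 6.1% of all named genes with a peak. A hormone word stood in the names of 9 of the 167 genes (5.4%), against 1.1%, and a cell wall word in those of 6 (3.6%), against 1.2%. Words for kinases (4.2%, against 5.4%) and for transporters or channels (3.0%, against 3.0%) were near the share of all genes. Such words sort genes poorly: those for transporters took in the desaturase gene AT3G02630 and missed KAT1, KT2/3 and LAX3. Of the genes listed as direct targets of PIFs that PIFs induce, a list made in part from dark-grown pifq seedlings, 156 have a peak (0.883% of all genes with a peak) and 24 carried an early loss, which is 15.4% of that list and 14.4% of the 167 genes. They comprised 22 of 103 lasting genes (21.4%), 2 of 23 in between and none of 41 recovered genes. No gene among the 104 PIF-repressed direct targets with a peak carried an early loss, against 0.945% of all genes with a peak. AT5G05965 and AT5G02580 showed the largest losses among the induced targets. AT5G05965 had 0.0404 in pifq R1h, 0.0906 in pifq WLc and 0.0854 in pifq D, and 0.0445 in wt R1h, 0.167 in wt WLc and 0.574 in wt D. AT5G02580 had 0.230, 0.159 and 0.372 in pifq R1h, pifq WLc and pifq D, and 0.176, 0.195 and 0.851 in wt R1h, wt WLc and wt D. Genes listed with at least 2-fold lower mRNA after 1 h of red light, measured in seedlings grown alike, made up 56 of the 167 (33.5%), or 38 lasting (36.9%), 7 in between (30.4%) and 11 recovered genes (26.8%). They are 1.98% of all genes with a peak, and 16.0% of the 350 listed genes with a peak carried an early loss. Among 570 genes listed with at least 2-fold higher mRNA, 1 did (0.2%, against 0.945% of all genes), the DNA photolyase gene AT4G25290.

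The rule sets recovered losses apart from lasting ones, and their genes are described here. The largest was a peak of AT5G50340, a gene for a RadA-like DNA repair protein, that lies 5025 to 5249 bp from the gene start. It had 0.275 in pifq R1h, 0.224 in pifq WLc and 0.469 in pifq D, and 0.0759 in wt R1h, 0.379 in wt WLc and 0.410 in wt D. Other peaks of AT5G50340 had 0.303 and 0.974 in wt R1h, and 0.434 and 0.903 in wt D. Next to this early loss on chromosome 5, AT5G50335 had 0.288, 0.245 and 0.456 in pifq R1h, pifq WLc and pifq D, and 0.0696, 0.343 and 0.308 in wt R1h, wt WLc and wt D. Both early losses also carried less signal in pifq R1h and pifq WLc than in pifq D. Fes1B, a co-chaperone gene, had 0.477 in pifq R1h and 0.597 in pifq D, whereas wt had 0.133 in R1h and 0.375 in D, and was above its dark level in wt WLc, with 0.570. AT3G53250, a SAUR-like gene, had the largest excess in pifq D, with 0.549 there and 0.161 in wt D, and had 0.428 in pifq R1h and 0.0693 in wt R1h. TTL2 followed, with 0.838 in pifq D and 0.422 in wt D, and 0.479 in pifq R1h and 0.232 in wt R1h. AT5G41761, AT5G54580, PLDALPHA3, a phospholipase D gene, AT4G04630 and AT5G57230 were the other recovered peaks among the 10 with the largest ratios, together with BEE3 and its neighbour ESP1. BBX17, a B-box gene, and LBD37, a LOB-domain gene, had 0.444 and 0.505 in pifq R1h, 0.632 and 0.469 in pifq D, 0.241 and 0.188 in wt R1h, and 0.429 and 0.328 in wt D. At LBD37 the signal in pifq R1h was therefore not below that in pifq D.

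The lowest values of pifq D against wt D belonged to lasting losses, ASY3 (log2 -2.99), PDC3 (-2.93), AT3G54510 (-2.75), AT5G37620 (-2.67, with its value in pifq D at the floor of the column), PIL1 (-2.34) and SBP3 (-2.33). ASY3, which encodes a protein of the meiotic chromosome axis, had the largest loss of all 165, with 0.0410 in wt R1h, 0.0459 in wt WLc and 0.773 in wt D, and had 0.00961 in pifq R1h, 0.00615 in pifq WLc and 0.0362 in pifq D. Its peak lies 3921 to 4628 bp downstream of its own start and 1793 bp beyond the peak of PIL1, the adjacent gene. PDC3, a pyruvate decarboxylase gene, had 0.0410 in pifq D, 0.435 in wt R1h and 0.779 in wt D, with floor values in pifq R1h and wt WLc. MYB10 had 0.164 in pifq R1h, 0.0848 in pifq WLc and 0.285 in pifq D, and 0.263 in wt R1h, 0.0306 in wt WLc and 0.779 in wt D. FLP1, a flowering-promoting factor-like gene, had 0.194 in pifq R1h and 0.157 in pifq D, whereas wt had 0.311 in R1h and 0.915 in D, with a floor value in wt WLc. In all, 5 of the 165 peaks lay at the floor in at least 1 group, none of them in wt R1h or wt D.

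Early losses differed from other peaks in where they lay. Their median length was 551 bp, against 840 bp for all peaks and 636 bp for the 4330 weakest, and recovered losses were the shortest class (353 bp). Their centres lay a median of 632.5 bp downstream of the gene start, against 451.5 bp for all peaks and 519.5 bp for the 4330 weakest. The assigned gene had more than 1 peak for 38.8% of lasting, 34.8% of in between and 36.6% of recovered genes, against 9.1% of all genes, and in 19 of 67 such cases (28.4%) the early loss was the peak nearest to the start. A gene with more peaks has more chances to hold an early loss, and neither share was set against the 4330 weakest peaks. RHD2, an NADPH oxidase gene of root hair growth, had a 172 bp early loss with 0.246 in wt R1h and 0.616 in wt D, beside a second peak with 0.626 in wt R1h and 0.814 in wt D. A median of 72.6% of the length of an early loss was exonic, against 70.7% for all peaks. Chromosomes 4 and 5 held 38 and 53 early losses, 1.44% and 1.29% of their peaks, against 0.796% on chromosome 1, 0.605% on chromosome 2 and 0.644% on chromosome 3.

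Most early losses had no other early loss beside them. Of the 165, 27 (16.4%) lay next to another one, against 329 of all 17319 peaks (1.9%), in 14 adjacent pairs, 4 of which were peaks of a single gene. Pairs of different genes included FHY1 and AT2G37680, FHL and AT5G02210, ST2A and AT5G07020, SAUL1 and AT1G20790, BEE3 and ESP1, and HB2 and AT4G16770. The peaks of AT2G37680, AT5G07020 and ESP1 begin 1473, 1491 and 1925 bp downstream of the gene start. Another peak of each had a log2 change of -0.165, -0.194 and -0.165 in wt R1h. Those of AT5G02210 and AT1G20790 span the start, and that of AT4G16770 begins 34 bp from it. Whether a pair reflects 1 gene or both was not tested. At AT2G37680 the signal was 0.422 in pifq R1h and 0.577 in pifq D, and 0.452 in wt R1h and 0.878 in wt D, close to the values of FHY1. ST2A, a sulfotransferase gene of jasmonate metabolism, and AT5G07020 had 0.509 and 0.472 in wt R1h and 1.07 and 0.880 in wt D. The adjacent peaks of SAUL1, a ubiquitin ligase gene, and AT1G20790 had almost no signal in wt WLc, with 0.00782 and 0.00561. In wt R1h these peaks had 0.507 and 0.551, and in wt D 0.860 and 0.901. The SAUL1 peak of this pair lies 2686 to 3930 bp from the gene start. Another SAUL1 peak had 0.740 in wt WLc, 0.866 in wt R1h and 0.977 in wt D. Peaks next to an early loss that are no members and belong to other genes had a median log2 change of -0.035 in pifq R1h and -0.076 in wt R1h, and 163 of these 240 (67.9%) were below 0 in wt R1h, against 50.3% of all peaks. Peaks at positions 2 to 5 on either side had medians between -0.011 and 0.010 in wt R1h. Other peaks of the member genes themselves had medians of -0.071 in pifq R1h and -0.198 in wt R1h, with 56 of 67 (83.6%) below 0 in wt R1h. The wt values here come from the contrast that chose the members and are descriptions.

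**Figure D5:**
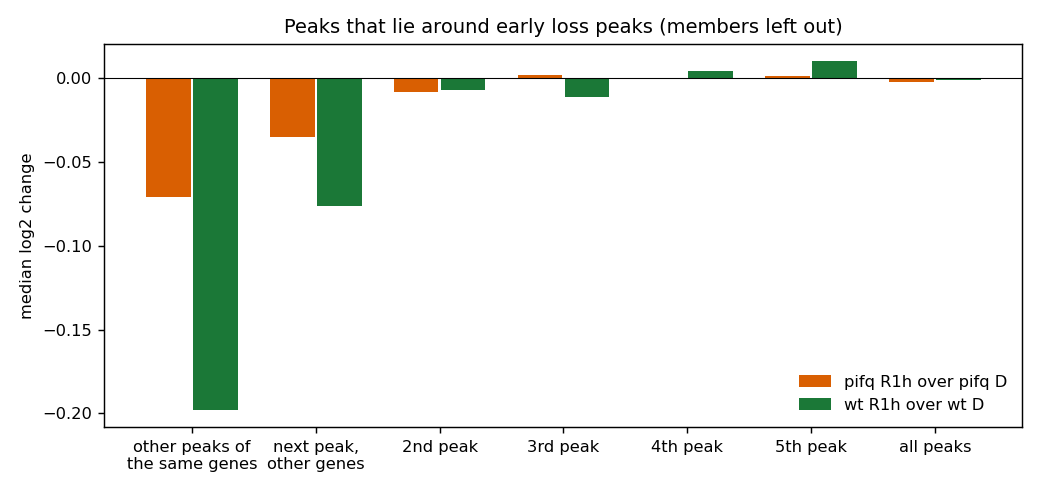
Median log2 change of H3K9ac after 1 h of red light in pifq (orange) and wt (green) for peaks around early losses, with the early losses themselves left out. Other peaks of the same genes (-0.071 in pifq and -0.198 in wt) and the next peaks of other genes (-0.035 and -0.076) lie below 0, and peaks from the second position on lie near 0.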

How the data were processed

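H3K9ac was profiled by chromatin immunoprecipitation and sequencing. Alignment by the authors used Bowtie2, peak calling BayesPeak and comparison DiffBind. By their methods a peak was given the gene whose start was nearest, but the deposited assignments do not always follow this. The ASY3 peak (chr2:19299643-19300350) lies nearer to the start of PIL1 (19297858) than to that of ASY3 (19304271). They deposited 1 pooled signal value per peak and group, and how the replicates were combined is not given in the sources used here. Judged by its values, the deposited signal is scaled to the length of the peak. Its 6 columns, each summed after multiplying by length, differ by at most 2.31%, so they keep no trace of depth, and precision is unknown. With pooled values the planned limma test could not be used and no test was run.

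Entries of the same peak for several genes were counted once. Log2 changes used a pseudocount of 0.07, which understates changes of weak peaks. A peak was counted as lower or higher from 1.5-fold. In the gene lists a gene counted as a member through any of its peaks. The gene lists, from general knowledge, were matched by symbol, or by locus where a symbol names more than 1 gene, to RefSeq TAIR10.1 (395 of 402 entries in 18 lists matched), and the lists of PIF targets and of mRNA changes came from the supplement of the study and were used for membership only. Product-name classes were chosen after the data were seen. The build is TAIR9 in the methods and TAIR10 in the notes of the submitters. Both have the nuclear sequence of TAIR10.1, in which 99.71% of peaks overlap their assigned gene. Whether peak starts count from 0 or 1 is not stated. Promoter windows were cut from that genome. The classification was run on simulated losses placed only in peaks outside the 4330 weakest. It therefore does not show how well weak peaks are classed, and 147 of the 165 early losses are among those 4330.

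The members, lists and named genes were chosen with earlier results of these data known. Named are the largest ratios in each class, the peaks beside the limit, list members, the extremes of pifq R1h against pifq D and of pifq D against wt D, PIF targets with the largest ratios, and adjacent members. GRF7, JLO, PRE5, MYB10, RHD2, LBD37, BBX17, CIB1 and the genes of the closing section outside this rule were picked after their values were seen. The 18 ChIP libraries and 6 inputs were available as labels only. Alternatives were 3 pseudocounts, 2 scalings, 4 subsets of peaks and 2 limits, and, added later, every gene entry, another limit for recovery and a longer promoter window. Python 3.11.15, pandas 2.3.3 and numpy 2.4.6 were used.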

Additional observations from a re-analysis of the deposited data

How the results depend on the processing

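The values considered were the numbers of early losses (165), lasting losses (102) and recovered losses (42), the numbers of early losses at least 1.5-fold lower in pifq R1h (24) and pifq WLc (36) than in pifq D and in dark pifq than in dark wt (80), and the median log2 changes in pifq R1h (-0.29) and pifq WLc (-0.32) over pifq D. The median log2 changes stayed below 0 in every setting. The counts have no direction that could change, so only their size can be compared, and many of them shifted. With a pseudocount of 0.007, there were 68 recovered losses, and 62, 121 and 74 early losses were lower in pifq R1h, pifq D and pifq WLc. With 0.2, there were 84 early, 58 lasting and 20 recovered losses, with 0, 37 and 9 lower. With 0.36, there were 38, 26 and 7, with 0, 22 and 0 lower and medians of -0.19 in pifq R1h and -0.21 in pifq WLc. Quantile normalization gave 315 early and 125 recovered losses, with 52 lower in pifq R1h and 80 in pifq WLc. Without the 4330 weakest peaks, 18 early, 5 lasting and 7 recovered losses were left, with 0 lower in pifq R1h, 2 in pifq D and 2 in pifq WLc. With 1 peak per gene there were 67 lasting losses and 13 lower in pifq R1h. A limit of 2-fold gave 34, 18 and 9 losses, with 0, 19 and 2 lower and medians of -0.46 in pifq R1h and -0.46 in pifq WLc, and a limit of 1.3-fold gave 533, 307 and 188, with 130, 269 and 160 lower. Peaks centred within 1000 bp of the gene start gave 109, 65 and 27, with 11 lower in pifq R1h and 51 in pifq D. Among all peaks, the share lower in pifq R1h was 1.374%, 0.15% and 0.017% with pseudocounts of 0.007, 0.2 and 0.36. It was 0.831% with quantile normalization, 0.015% without the 4330 weakest peaks and 0.415% with 1 peak per gene. Limits of 2-fold and 1.3-fold gave 0.081% and 2.148%, and peaks within 1000 bp of the gene start gave 0.412%. Scaling the columns to the same median, leaving out peaks at the floor and, chosen after seeing the data, counting every gene entry or a recovery limit of 1 left each count within 1.5 times its main value. Smaller pseudocounts and limits admit more weak peaks by construction. For the other shifts the cause was not tested. Leaving out replicates could not be run, since the values are pooled. No paired analysis was possible because the table holds 1 pooled value per group. Depth is unknown, so weak peaks carry an error that cannot be given.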

Other observations

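Potassium channels, microRNA precursors and further light and hormone genes lay outside the gene lists and were picked after their values were seen. KAT1, an inward potassium channel of guard cells, was a recovered loss with 0.362 in pifq R1h, 0.295 in pifq WLc and 0.505 in pifq D, and 0.262 in wt R1h, 0.482 in wt WLc and 0.574 in wt D. KT2/3, a potassium channel gene of the phloem, carried a lasting loss with 0.286 in pifq R1h and 0.285 in pifq D, whereas wt had 0.321 in R1h and 0.676 in D, beside a second peak with 0.221 in wt R1h, 0.522 in wt WLc and 0.151 in wt D. The 2 peaks of KT2/3 thus differed in direction in the pooled wt values, and SSL2 had a like pair, with 0.330 in wt R1h and 0.766 in wt D at the lasting loss and 0.574 in wt R1h and 0.446 in wt D at its other peak.

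Both microRNA precursors among the members were lasting losses. MIR166e, of the family that targets class III homeodomain-leucine zipper genes, had 0.203 in pifq R1h and 0.261 in pifq D, whereas wt had 0.365 in R1h and 0.640 in D. MIR167d, of the family that targets auxin response factor genes, had 0.205 in pifq R1h and 0.245 in pifq D, whereas wt had 0.310 in R1h and 0.553 in D. ARF18, an auxin response factor gene, had 0.188 in pifq R1h and 0.229 in pifq D, whereas wt had 0.356 in R1h and 0.590 in D. The B-box genes COL9 and BZS1 had 0.340 and 0.371 in pifq R1h, 0.464 and 0.462 in pifq D, 0.431 and 0.401 in wt R1h, and 0.787 and 0.664 in wt D. Of the wall genes LRX2 and EXPA9, EXPA9 was 1 of the 5 peaks higher in pifq WLc, with 0.507 there and 0.282 in pifq D, whereas it had 0.318 in wt WLc and 0.732 in wt D.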
